A study of Mus musculus with 15 samples.

Results

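RNA was compared between untreated NIH3T3 cells, a long-established mouse fibroblast line of embryonic origin, and NIH3T3 cells harvested 6 h after ultraviolet irradiation. They are 6 of the 15 samples in the series, chosen by their labels: 3 libraries named as the start of the experiment and 3 named as 6 h after UV. The other 9 samples are assays of open chromatin, of acetylation of histone H3 at lysine 27 (H3K27ac), and 1 input DNA. The irradiated cells had been washed, exposed without cover to UV-C at 254 nm and a dose of 80 J/m2, and then given fresh medium with DMSO. Washing, re-feeding or DMSO is not described for the untreated cells, so irradiation and this handling cannot be told apart. Both groups are 1 cell line, and the labels do not say that the replicates came from separate cultures, so the p-values cover no more than the spread among these 6 libraries, which may be technical. The files list 19069 genes, of which 14925 had enough counts to test. Of these, 237 belong to the p53 target, AP-1 and immediate early, histone and ribosomal protein gene families, and the description below is mainly of the other 14688.

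UV-C light joins neighbouring pyrimidines in DNA. RNA polymerase II stalls at such lesions, and long genes are hit more often than short ones, so transcripts that decay fast are replaced more slowly while stable ones persist. At the same time stress kinases and growth factor receptors are activated, and genes for secreted factors, feedback inhibitors and stress proteins are switched on. Steady-state RNA, the quantity measured here, holds the sum of synthesis and decay, and counts cannot separate them.

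The libraries held 14211528 to 22032701 counts over genes, and 17607 to 18787 genes had at least 1 count. Irradiated replicate 1 held the 17607 and stood apart at low levels, and counts below are also given without it or without another library where that moved them most. Fibroblast markers (Col1a1, Col1a2, Col3a1, Vim, Thy1, Pdgfrb and S100a4) summed to 13660 to 18380 CPM (counts scaled by effective library size) untreated and 14890 to 26750 CPM after UV, and all 7 were detected in every library. Markers of epithelium summed to at most 9.88 CPM, those of endothelium to at most 9.63 CPM and those of muscle to at most 3.91 CPM in any library. The adipocyte list was at 16.7 to 22.6 CPM untreated and 18.6 to 22.3 CPM after UV, most of it Lpl at 15.2 CPM or more, with Adipoq, its defining marker, at up to 0.518 CPM. The macrophage and blood list was at 9.55 to 10.99 CPM untreated and 15.8 to 18.3 CPM after UV, with Ptprc, the defining leukocyte marker, at up to 2.69 CPM, and its part in the results was not tested. As a check of the labels, Cdkn1a, the p53 target p21, stood at 29.9, 19.9 and 18.4 CPM untreated and at 180, 55.4 and 91.9 CPM after UV. Mdm2, another p53 target examined for the same purpose, averaged 85.9 CPM untreated and 88.8 CPM after UV, and its groups overlapped (log2 fold change 0.05 ± 0.24, edgeR adjusted p = 0.967). The labels call the extracted molecule genomic DNA for these libraries too, while their protocol describes purified RNA. Fewer cells of a kind and less RNA per cell cannot be told apart in such bulk samples.

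Outside the 4 families, falls outnumbered rises, and more of them reached 2-fold. Among the 14688 genes, 1035 rose and 1793 fell in edgeR's quasi-likelihood test at a Benjamini-Hochberg adjusted p below 0.05, or 7.05% and 12.2%. Over all tested genes the shares were 7.7% higher and 12.4% lower. A change of at least 2-fold was reached by 204 of the rises (19.7%) and by 748 of the falls (41.7%). The 4 families, 237 genes in all, gave 114 rises and 61 falls. Of the called genes outside them, 2005 belong to none of the 49 further gene lists, not all of which are described below. The balance rested on single libraries: without untreated replicate 2 there were 1826 rises and 1113 falls outside the families, without untreated replicate 1 the rises numbered 1677, and without irradiated replicate 1 the falls numbered 2779. Without irradiated replicate 3 only 491 rises and 1082 falls were called. Of the reported calls, 406 rises and 941 falls were called in all 12 other settings, and none was called in the opposite direction in any of them. The groups did not overlap in CPM for 33.9% of tested genes.

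**Figure D1:**
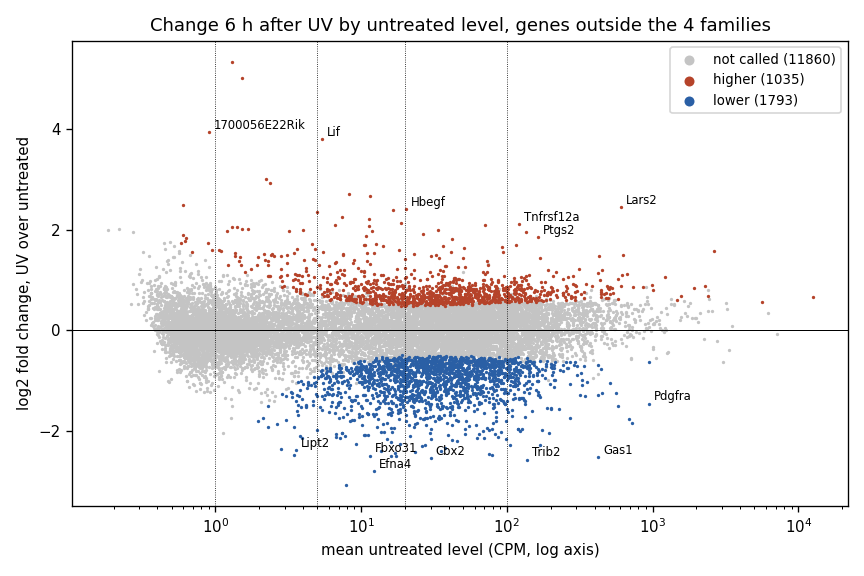
Log2 fold change (UV over untreated) of each tested gene outside the 4 families against its mean untreated level in CPM on a log axis. Red points are the 1035 genes called higher, blue the 1793 called lower and grey the rest; dotted lines mark the class bounds at 1, 5, 20 and 100 CPM, and few genes under 5 CPM are coloured.

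Genes of middle untreated level fell most often. The genes were divided by mean untreated CPM, a measure of read number that grows with transcript length as well as with molecule number. In the class of 5 to 20 CPM, 10.9% of 2518 genes rose and 20.5% fell. In the class of 20 to 100 CPM, 9.94% of 4878 genes rose and 20.9% fell. Among the 2037 genes at 100 CPM or more the shares came closer, at 9.33% and 10.4%. The share of falls was smaller at 100 CPM or more than at 20 to 100 CPM in all 15 settings examined, the reported one included, and the class median was higher in all 15, but rises outnumbered falls in the highest class in 8 of them. Scaled by library totals alone, falls made up 43.5% at 20 to 100 CPM and 32.4% at 100 CPM or more. Without irradiated replicate 1 the shares of falls were 32.6% and 20.8%, and without untreated replicate 2 they were 14.1% and 6.68%, with 19.8% of the middle class higher.

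In the lowest classes few genes could be called. Under 1 CPM, 0.405% of 2221 genes rose, and none was called lower by edgeR, by DESeq2 or at an unadjusted p below 0.05 (0 genes). That absence of falls is no result about these genes, since a gene under 1 CPM has little room to fall. The count filter also keeps genes whose counts suffice only after UV. At 1 to 5 CPM 2.54% of 3034 rose and 1.48% fell. The median standard error of a log2 fold change was 0.72 under 1 CPM and 0.49 at 1 to 5 CPM, against 0.19 to 0.21 in the 3 higher classes, so a 2-fold change was mostly not detectable at this depth in the low ones. The irradiated libraries also disagreed there. The median log2 ratio to the untreated mean under 1 CPM was −0.92 in irradiated replicate 1, 0.56 in replicate 2 and 0.22 in replicate 3. At 100 CPM or more it was 0.33, −0.16 and 0.07. In each irradiated library the class median at 100 CPM or more lay above that at 20 to 100 CPM, where it was 0.16, −0.22 and −0.07.

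**Figure D2:**
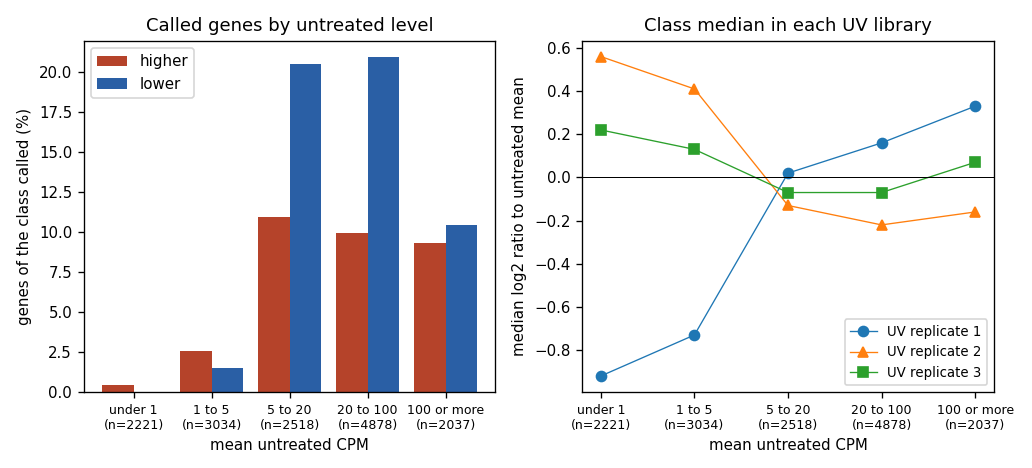
Left, percent of genes outside the 4 families called higher or lower in each class of mean untreated CPM. Right, median log2 ratio of each irradiated library to the untreated mean by class; replicate 1 lies lowest under 5 CPM and highest above it.

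The most abundant transcripts took a larger share of each irradiated library. The 500 most abundant genes of a library held 41.6%, 41.7% and 40.3% of its counts untreated and 49.2%, 49.5% and 49.6% after UV. The 10 most abundant held 5.62 ± 0.136% and 7.44 ± 0.119% (mean ± SD, n = 3). Genes in the class of 20 to 100 CPM went from 26.3 ± 0.464% to 22.4 ± 0.166% of counts. Genes at 100 CPM or more went from 69.4 ± 0.989% to 73.8 ± 0.517%. None of these shares overlapped between the groups, and the two-sided exact permutation p was 0.1, the smallest that 3 against 3 libraries allow. With the 4 families left out, the class at 100 CPM or more held 60.8 ± 1.44% and 59.8 ± 2.50% of counts, and the groups overlapped. Ribosomal protein genes alone went from 7.91 ± 0.971% to 13.5 ± 2.08%.

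The largest rises outside the families included genes for secreted factors and receptors of low untreated level. Genes named by level were picked among called genes whose groups do not overlap in CPM, so that separation is part of the choice. Under 1 CPM, 1700056E22Rik, a gene with only a clone name, stood at 0.933, 0.864 and 0.919 CPM untreated and at 19.3, 8.82 and 13.8 CPM after UV. It was the 1 gene called that went from under 1 CPM to 5 CPM or more, with a log2 fold change of 3.94 ± 0.30 (SE, edgeR adjusted p = 1.33e-07). Gpr44 (now Ptgdr2), a prostaglandin D2 receptor, rose from a mean of 0.598 to 3.45 CPM. B3gnt4, a glycosyltransferase, rose from 0.602 to 2.26 CPM, a call lost under DESeq2 and without irradiated replicate 3.

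At 1 to 5 CPM, 1810011O10Rik (now Tcim), a small regulator of transcription, stood at 1.61, 1.14 and 1.15 CPM untreated and at 74.3, 35.8 and 46.7 CPM after UV. Nppb, the natriuretic peptide B gene, stood at 2.59, 1.14 and 0.842 CPM and at 61.6, 35.2 and 47.3 CPM. In both genes every irradiated library lay far above every untreated one. The log2 fold changes were 5.34 ± 0.29 for 1810011O10Rik (adjusted p = 3.67e-09) and 5.01 ± 0.33 for Nppb (adjusted p = 2.54e-08). Ccno, cyclin O, rose from 2.22 ± 1.17 to 18.1 ± 3.36 CPM. Among the falls of this class, Lipt2, which attaches the precursor of lipoic acid to mitochondrial enzymes, went from 3.94, 4.19 and 2.56 CPM to 0.867, 0.539 and 0.637 CPM, a log2 fold change of −2.37 ± 0.44. Mblac1, a metallo-beta-lactamase domain gene, fell by 2.35 on the log2 scale, a call lost under DESeq2.

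At 5 to 20 CPM the largest rises were in a pair of cytokines. Lif stood at 3.94, 6.23 and 5.93 CPM untreated and at 69.0, 62.6 and 94.2 CPM after UV, a log2 fold change of 3.80 ± 0.23 (adjusted p = 1.13e-08). Il11, which like Lif signals through the gp130 receptor chain, stood at 9.95, 7.14 and 7.77 CPM and at 75.3, 37.9 and 48.6 CPM. Lpar6, a lysophosphatidic acid receptor, rose from 11.6 ± 1.40 to 73.5 ± 23.9 CPM. It lies in an intron of Rb1, the counting is not stated to use strand, and Rb1 itself rose by 0.60 on the log2 scale. Among the falls, the clone-named gene 9930012K11Rik stood at 8.50, 7.73 and 7.27 CPM untreated and at 0.805, 0.876 and 1.10 CPM after UV, a log2 fold change of −3.07 ± 0.30, and was the 1 gene called that went from 5 CPM or more to under 1 CPM. Efna4, a membrane-bound ligand of Eph receptors, went from 11.3, 11.7 and 14.01 CPM to 1.67, 1.62 and 2.03 CPM. Fbxo31, a substrate receptor of a ubiquitin ligase, went from 11.4 ± 1.40 to 2.04 ± 0.345 CPM, a log2 fold change of −2.49 ± 0.24.

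At 20 to 100 CPM, Hbegf, a ligand of the EGF receptor, stood at 35.5, 13.7 and 11.7 CPM untreated and at 148, 67.8 and 106 CPM after UV. Ccl7, a chemokine that attracts monocytes, stood at 20.9, 107 and 83.9 CPM and at 119, 336 and 448 CPM. The Ccl7 groups nearly met, at 107 and 119 CPM, and the call was lost with library totals. Cxcr2, a chemokine receptor, rose from 33.9 ± 8.71 to 135 ± 34.2 CPM. Among the falls, Cbx2, a Polycomb chromodomain protein, stood at 30.9, 30.7 and 28.2 CPM untreated and at 5.32, 5.39 and 4.69 CPM after UV, a log2 fold change of −2.54 ± 0.18 (adjusted p = 7.49e-08). Cdc42ep2, an effector of the small GTPase Cdc42, fell from 78.9 ± 17.6 to 14.1 ± 0.919 CPM. B4galt5, a galactosyltransferase that makes lactosylceramide, fell from 75.04 ± 10.5 to 13.7 ± 8.79 CPM, with irradiated replicate 1 at 23.9 CPM and the others at 8.82 and 8.51 CPM.

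At 100 CPM or more, Tnfrsf12a, the receptor of the cytokine TWEAK, stood at 175, 103 and 88.5 CPM untreated and at 650, 415 and 518 CPM after UV, a log2 fold change of 2.11 ± 0.27 (adjusted p = 2.32e-05). Ptgs2, the inducible cyclooxygenase, stood at 296, 102 and 91.8 CPM and at 920, 301 and 546 CPM. Its groups were separated by 5 CPM at their nearest, and the call was lost under DESeq2 and without untreated replicate 2. Lars2, the mitochondrial leucyl-tRNA synthetase, stood at 507, 514 and 796 CPM untreated and at 6957, 1203 and 1737 CPM after UV, so that its mean rested on irradiated replicate 1. Trib2, a pseudokinase of the Tribbles family, stood at 117, 160 and 136 CPM untreated and at 21.2, 23.3 and 25.1 CPM after UV. Gas1, a membrane protein that binds Hedgehog, stood at 246, 557 and 469 CPM and at 52.0, 87.2 and 83.2 CPM. Has2, a hyaluronan synthase, fell from 168 ± 74.7 to 34.5 ± 5.58 CPM. For Gas1 and Has2 the lowest untreated value was that of replicate 1, still above every irradiated library.

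**Figure D3:**
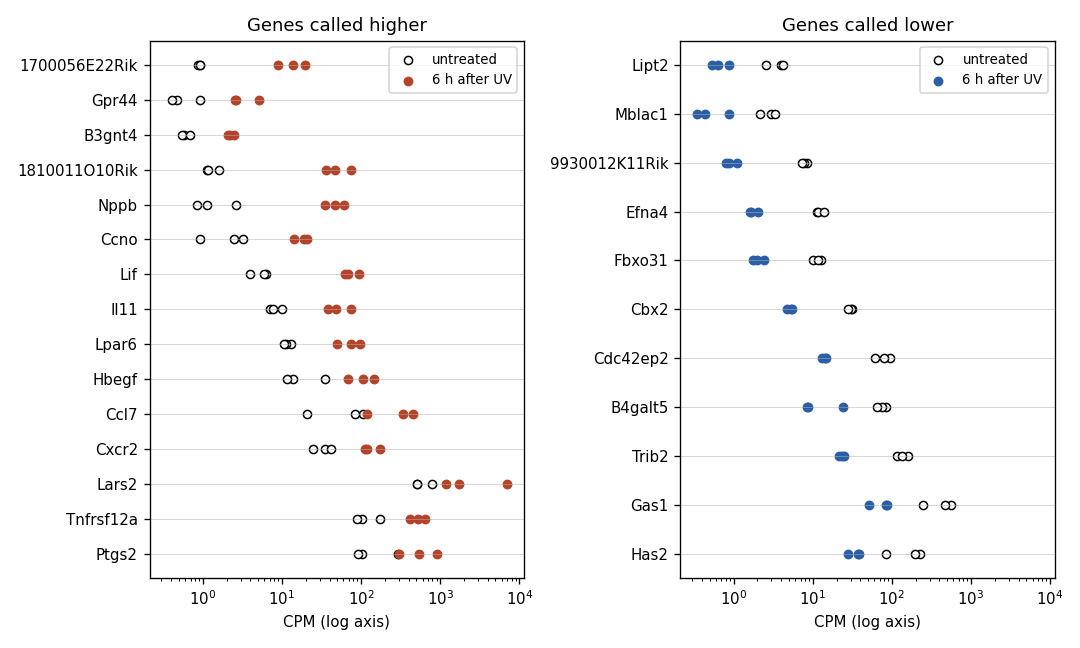
CPM in each library on a log axis for genes among the largest rises (left) and falls (right) in each class of untreated level, ordered from the lowest class at the top. Open circles are untreated and filled circles irradiated libraries. The genes were chosen among those whose groups do not overlap, and Lars2 has 1 irradiated library at 6957 CPM.

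Counted in CPM rather than in fold, the largest gains among called genes outside the families were in genes of matrix and translation. Fn1, fibronectin, stood at 3348, 2268 and 2300 CPM untreated and at 10830, 6086 and 6776 CPM after UV, a log2 fold change of 1.58 ± 0.24 (adjusted p = 0.000144). Eef1a1, the elongation factor that brings aminoacyl-tRNA to the ribosome, went from 12540 to 19770 CPM on average, a log2 fold change of 0.66 ± 0.19. That call was lost with library totals, without a low-count filter and without irradiated replicate 1 or 3, and reads of its processed pseudogenes may be split by the counting. Gnb2l1 (now Rack1), a scaffold of the small ribosomal subunit, rose from 2287 ± 326 to 4197 ± 190 CPM, a call lost without irradiated replicate 3. Eef2, the translocase of elongation, rose from 5597 ± 867 to 8318 ± 392 CPM at an adjusted p of 0.0409, a call lost in 7 of 12 settings. Among called genes the largest losses were in a growth factor receptor, a nuclear import factor, a transporter and a kinase. Thbs1, thrombospondin, and Hspa8, a constitutive chaperone, had larger mean differences, −1089 and −795 CPM, but were not called (adjusted p = 0.226 and 0.188). Pdgfra, the alpha receptor of platelet-derived growth factor, stood at 466, 1254 and 1111 CPM untreated and at 214, 404 and 413 CPM after UV, and the call was lost without untreated replicate 2 or 3. Kpna2, importin alpha, fell from 722 ± 176 to 202 ± 74.9 CPM. Slc38a2, an amino acid transporter, fell from 688 ± 222 to 204 ± 11.1 CPM. Sgk1, a kinase induced by serum and glucocorticoids, fell from 578 ± 81.5 to 203 ± 56.5 CPM.

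Among the signalling lists, falls led in feedback inhibitors of growth factor pathways. The shares over all tested genes, for comparison with each list, were 7.7% higher and 12.4% lower. Outside the 4 families, 20.5% of genes fell at 5 to 20 CPM and 20.9% at 20 to 100 CPM. Of 29 tested inhibitors of ERK and receptor kinases 13 fell and 4 rose, with a median log2 fold change of −0.54 against −0.01 over all genes, and 7 fell without untreated replicate 2. Spry1 went from 24.8, 22.3 and 22.8 CPM to 9.65, 5.72 and 6.43 CPM, while its paralog Spry2 went the other way, from 39.1, 36.4 and 26.7 CPM to 132, 59.95 and 86.5 CPM. Rgs2, which speeds GTP hydrolysis by G alpha subunits, fell by 1.40 on the log2 scale, and Dusp8, a phosphatase of stress kinases, rose by 2.03. Of 27 genes of Tribbles and stress kinases 11 fell and 1 rose (median −0.54). The riser was Trib3, a target of the amino acid stress response, at 9.07, 5.64 and 5.36 CPM untreated and 24.4, 14.8 and 12.4 CPM after UV, against the fall of its paralog Trib2. The list's share of counts went from 0.253 ± 0.00539% to 0.129 ± 0.0119%, without overlap between the groups. Of 45 genes of the TGF-beta and BMP pathway 14 fell and 3 rose (median −0.44). With single libraries left out 11 to 21 fell, and the median was −0.17 without untreated replicate 1. Smad6, an inhibitor of BMP signals, fell from 29.5 ± 4.05 to 7.17 ± 1.25 CPM, and Id3, a BMP target that binds bHLH factors, fell from 124 ± 25.7 to 30.9 ± 8.32 CPM. The matrix protein gene Ltbp2 and the activin antagonist Fstl3 rose by 0.88 and 0.86 on the log2 scale.

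No member of the Wnt, Notch, Hedgehog or ephrin lists was called higher by edgeR or DESeq2, and 3, 1, 1 and 1 were higher at an unadjusted p below 0.05. Over all tested genes 7.7% were called higher, so few rises would be expected in lists of 18 to 54 genes. Wnt genes had 13 falls of 54, led by Axin1, a scaffold of beta-catenin destruction (log2 fold change −1.70 ± 0.20), and Fzd2, a Wnt receptor (−1.45 ± 0.19), but 7 and 8 falls without untreated replicate 2 and irradiated replicate 3. Notch genes had 6 falls of 30, or 3 without untreated replicate 2, among them Lfng, which adds sugar to Notch (−1.38 ± 0.27). Hedgehog genes had 5 falls of 18, with Gli2, a transcription factor of the pathway, at −1.08 ± 0.20 beside Gas1. Ephrins and Eph receptors had 7 falls of 20, with Ephb3 going from 48.6, 68.4 and 62.5 CPM to 23.1, 21.1 and 20.1 CPM. Leaving out single libraries gave at most 2 rises in any of these lists. Growth factors, cytokines and chemokines had 9 rises and 3 falls of 51. Beside the risers Lif and Nppb, Fgf7, a growth factor for epithelium made by fibroblasts, fell from 423 ± 103 to 174 ± 15.8 CPM. Without irradiated replicate 1 the falls of that list numbered 8, and with library totals the balance turned, to 5 rises and 9 falls.

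Genes of adhesion and the cytoskeleton were mixed. Of 45 actin and SRF target genes 9 rose and 4 fell (median 0.53). Actn4, an actin crosslinker, went from 131, 84.6 and 69.4 CPM to 439, 192 and 209 CPM, and Palld, palladin, rose from 12.8 ± 1.81 to 25.6 ± 7.24 CPM. The count of rises in this list moved with the library left out, to 28 without untreated replicate 1, 21 without irradiated replicate 2 and 5 without irradiated replicate 1, where 7 members fell. Of 29 YAP and TAZ targets 8 fell and 1 rose, or 14 fell without irradiated replicate 1. Tead4, the DNA-binding partner of YAP, fell from 15.2 ± 0.974 to 5.63 ± 0.651 CPM. Of 106 matrix proteases and inhibitors 3 rose and 4 fell, under the background shares, and 4 to 8 rose and 3 to 6 fell with single libraries left out. Timp1, an inhibitor of matrix metalloproteases, rose from 217 ± 63.5 to 482 ± 162 CPM, and Adamts1, a protease of proteoglycans, fell from 342 ± 45.1 to 139 ± 11.9 CPM. Collagens gave 2 rises of 41, integrins 1 fall of 26, and semaphorins and plexins 2 falls of 31. Collagens had 8 rises without untreated replicate 1 and 5 without irradiated replicate 2, and integrins, and likewise semaphorins and plexins, had 5 falls without irradiated replicate 1. Tubulins and kinesins gave 5 falls of 59, but 17 without irradiated replicate 1.

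The zinc finger genes with a Zfp symbol had the most falls of any list by number. Of 340 tested, 152 fell (44.7%) and 4 rose, with a median of −0.54. The list was built by symbol and holds KRAB-type DNA-binding genes and others, in shares that were not determined. Their share of counts was 1.15%, 1.10% and 1.38% untreated and 0.723%, 0.945% and 0.861% after UV. Without irradiated replicate 3 there were 97 falls and without untreated replicate 2 there were 101. Zfp472 stood at 16.3, 16.4 and 15.4 CPM untreated and at 3.03, 2.09 and 3.42 CPM after UV, a log2 fold change of −2.48 ± 0.22. Zfp637 stood at 40.1, 54.9 and 41.1 CPM and at 11.3, 10.1 and 8.17 CPM. Among the 4 rises, Zfp607 (now Zfp607a) rose from 22.03 ± 1.76 to 47.8 ± 7.40 CPM, and Zfp36, which is not a KRAB gene but an early gene for an mRNA decay factor, rose by 1.82. Many KRAB genes lie in clusters of near copies, so reads may be split between neighbours.

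Other transcription lists fell in part. Of 123 homeobox, Sox, Fox and T-box genes 21 fell and 4 rose, or 13 fell without either untreated or irradiated replicate 3. Irx1 went from 15.6, 18.8 and 17.2 CPM to 3.34, 3.30 and 2.90 CPM, and Dlx2 rose from 7.504 ± 3.61 to 21.0 ± 8.88 CPM. Of 38 nuclear receptors and coregulators 9 fell and 1 rose, the falls led by Rxra (log2 fold change −1.60 ± 0.20) and Rara (−1.46 ± 0.18), receptors that pair to bind retinoic acid response elements. Of 23 clock genes 6 fell (median −0.50), or 12 without irradiated replicate 1, among them Arntl, which encodes the activator BMAL1, from 25.6 ± 4.61 to 10.1 ± 1.05 CPM. Of 37 Polycomb and H3K27 enzymes 11 fell and 3 rose, or 6 fell without irradiated replicate 3. Beside the fall of Cbx2, Ezh2, the H3K27 methyltransferase, rose by 0.66 ± 0.19, a call lost without irradiated replicate 3. Kdm6b, an H3K27 demethylase, rose by 0.95 ± 0.25, a call lost with library totals and without irradiated replicate 1 or untreated replicate 2. Of 79 genes of Mediator, TFIID and the general factors 23 fell and 7 rose, or 14 and 15 fell without irradiated replicate 3 and untreated replicate 2, the latter with 12 rises. Taf10 rose from 30.8 ± 2.84 to 65.4 ± 4.07 CPM and Taf5 fell from 26.7 ± 2.74 to 7.92 ± 1.51 CPM, though both are TFIID subunits. Of 27 RNA polymerase subunits 6 rose and 7 fell. Without irradiated replicate 1 the falls were 12, without irradiated replicate 3 there were 2 of each, and without untreated replicate 1 or 2 there were 8 rises and 4 falls. Polr2l, a subunit shared by polymerases I, II and III, rose by 1.04 on the log2 scale, and Polr2a, of polymerase II alone, by 0.89. Polr3g and Polr3f, subunits of polymerase III, fell by 1.55 and 0.87.

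RNA-processing lists were split. Of 58 genes of mRNA decay 8 rose and 13 fell (22.4%), near the 20.9% of falls at 20 to 100 CPM. Without irradiated replicate 1 the falls were 20, without irradiated replicate 3 the rises were 4, and without untreated replicate 1 or 2 there were 13 rises against 11 and 10 falls. Tob1, an adaptor that recruits deadenylase, went from 3.78, 6.28 and 4.82 CPM to 26.1, 23.2 and 27.5 CPM, a log2 fold change of 2.36 ± 0.21. Zc3h12a, an endonuclease that cuts cytokine mRNA, rose from 14.1 ± 2.95 to 45.4 ± 10.4 CPM. The exosome subunit genes Exosc7 and Exosc4 fell by 1.88 and 1.26 on the log2 scale. Of 87 SR, hnRNP and SF3 splicing genes 12 rose and 5 fell, or 24 and 3 rose without untreated replicate 2 and irradiated replicate 3. With library totals the balance turned, to 11 rises and 23 falls. Rbm5 fell from 121 ± 5.32 to 47.4 ± 5.92 CPM and Rbm4, another RNA-binding motif gene, rose from 34.1 ± 1.04 to 61.4 ± 13.0 CPM.

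In protein synthesis, the excess of rises among translation factors depended on the scaling and on single libraries. Of 66 translation factors 18 rose and 7 fell (median 0.32, or 0.08 with library totals). The counts were 15 and 14 with library totals, 12 and 11 without irradiated replicate 1, and 6 and 3 without irradiated replicate 3. Eif1, which guards start codon choice, stood at 34.4, 33.8 and 29.2 CPM untreated and at 110, 78.6 and 87.5 CPM after UV. Eif2ak3, the kinase PERK that lowers initiation under stress of the endoplasmic reticulum, fell from 40.9 ± 4.73 to 12.8 ± 1.37 CPM. Of 55 ribosome assembly factors 2 rose and 9 fell, but 11 rose and 6 fell without untreated replicate 1, and 16 fell without irradiated replicate 1. Nip7, needed for large subunit assembly, rose from 93.1 ± 9.94 to 294 ± 82.1 CPM. The aminoacyl-tRNA synthetase list gave 1 rise of 24, or 3 without untreated replicate 1, and 2 falls without irradiated replicate 1. The 1 riser was Aimp1 (0.57 ± 0.19), not itself a synthetase, a call lost under DESeq2 and without irradiated replicate 1 or 3. Lars2, a synthetase that rose, is not in this list. Of 38 endoplasmic reticulum chaperone and stress genes 9 rose and 1 fell, or 14 rose without untreated replicate 1, and the falls were 6 with library totals and 5 without irradiated replicate 1. Ppp1r15a, the phosphatase subunit GADD34 that restores initiation, went from 17.3, 19.6 and 18.98 CPM to 112, 66.0 and 69.2 CPM, opposite to Eif2ak3. Of 92 chaperone and heat shock genes, found by symbol in all compartments, 14 rose and 12 fell. Library totals gave 9 rises and 20 falls, the data without untreated replicate 2 gave 18 and 3, and those without irradiated replicate 3 gave 8 and 5.

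In protein turnover, falls led among F-box genes. Of 67 F-box genes, substrate receptors of SCF ubiquitin ligases, 23 fell and 3 rose, and the falls ranged from 17 to 28 when any library was left out. Their share of counts went from 0.225%, 0.232% and 0.240% to 0.141%, 0.148% and 0.142%. Fbxo34 fell from 23.1 ± 1.06 to 7.58 ± 0.860 CPM. Of 137 TRIM and RNF genes 28 fell (20.4%) and 6 rose, or 15 and 17 fell without untreated replicate 2 and irradiated replicate 3. That 20.4% was near the 20.9% of falls among genes at 20 to 100 CPM, the class of the list's median untreated level (24.5 CPM). Rnf220 fell from 62.2 ± 3.61 to 14.2 ± 3.72 CPM. Of 44 proteasome subunits 7 rose and none was called lower by edgeR or DESeq2, with 1 lower at an unadjusted p below 0.05 (median 0.39, or 0.15 with library totals). That count went to 23 without untreated replicate 2, to 12 without untreated replicate 1 or 3 and to 2 without irradiated replicate 3, and library totals gave 9 rises and 5 falls. Psmb6, a catalytic subunit, rose from 120 ± 15.4 to 221 ± 11.8 CPM. Of 61 lysosomal genes 8 rose and 1 fell, but 27 and 1 rose without untreated replicate 2 and irradiated replicate 3, and 15 and 19 without untreated replicates 1 and 3. With library totals the balance turned, to 6 rises and 9 falls. Of 42 autophagy genes 3 rose and 4 fell, with 8 and 2 without untreated replicate 2, 1 and 3 without irradiated replicate 3, and 3 and 7 without irradiated replicate 1. Library totals gave 4 rises and 14 falls. Map1lc3a, a protein of the autophagosome membrane, went from 32.9, 51.4 and 41.6 CPM to 126, 150 and 166 CPM.

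The respiratory chain list had the largest share of rises outside the 4 families. Of 83 tested genes of complexes I to V, which move electrons and make ATP in the inner mitochondrial membrane, 59 rose (71.1%) and 2 fell, with a median of 0.74. No transcript of the mitochondrial genome was found among the genes counted, so the list covers nuclear genes only. Scaled by library totals 53 rose and the median was 0.52. Without irradiated replicate 1 there were 57 rises and without irradiated replicate 3 there were 30. The list's share of counts was 0.892%, 1.04% and 0.948% untreated and 1.15%, 1.38% and 1.36% after UV. Ndufa1, a subunit of complex I, stood at 32.2, 41.4 and 33.7 CPM untreated and at 73.7, 72.4 and 82.7 CPM after UV, a log2 fold change of 1.09 ± 0.18. Cycs, cytochrome c, which also activates caspases when released, rose from 193 ± 32.4 to 442 ± 54.3 CPM. The falls were Atp5sl (now Dmac2) and Ndufaf4, both assembly factors rather than subunits, at −0.63 and −0.70, and both calls were lost under DESeq2. Many subunit genes have processed pseudogenes, whose reads the counting may have split.

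Mitochondrial ribosomal protein genes were less uniform. Of 76, 23 rose and 6 fell with a median of 0.18, but the median was −0.06 with library totals and 0.03 without irradiated replicate 1, where 19 rose and 12 fell, and 4 rose without irradiated replicate 3. Library totals gave 14 rises and 21 falls. Their share of counts was 0.277 ± 0.0107% untreated and 0.274 ± 0.0125% after UV. Mrpl23 rose from 16.1 ± 1.90 to 30.6 ± 1.22 CPM and Mrpl44 fell from 26.8 ± 5.17 to 7.97 ± 0.546 CPM. Of 37 NRF2 targets and antioxidant genes 12 rose and 3 fell (median 0.49), or 19 rose without untreated replicate 1 and 5 without irradiated replicate 3. Gpx1, a glutathione peroxidase, went from 46.5, 49.3 and 42.9 CPM to 113, 112 and 109 CPM, and Ftl1, ferritin light chain, rose from 425 ± 25.2 to 942 ± 166 CPM. Nfe2l2, which encodes NRF2 itself, fell from 91.0 ± 6.66 to 45.8 ± 3.18 CPM, and Gclc, the rate-limiting enzyme of glutathione synthesis and a textbook NRF2 target, fell by 1.56. Of 24 glycolysis genes 3 rose and 4 fell, or 5 and 2 without untreated replicate 1 or 2 and 5 and 3 without untreated replicate 3. Gapdh and Aldoa rose by 0.73 and 0.67, calls lost without irradiated replicate 1 or 3 and without a low-count filter, while Slc2a1, the glucose transporter GLUT1, fell from 130, 146 and 125 CPM to 54.0, 31.9 and 35.6 CPM and Hk2, hexokinase, fell by 0.96. Of 27 cholesterol synthesis genes 5 fell and none was called higher by edgeR or DESeq2, with 3 higher at an unadjusted p below 0.05, or 8 fell without irradiated replicate 1 and 3 without irradiated replicate 3. Sqle, squalene epoxidase, stood at 212, 332 and 271 CPM untreated and at 83.7, 78.1 and 81.3 CPM after UV.

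Among cell cycle lists, 15 of 61 replication and G1/S genes fell and 1 rose, or 23 and 9 fell without irradiated replicates 1 and 3. Cdca7, a chromatin remodelling cofactor of cycling cells, fell from 80.3 ± 8.55 to 22.5 ± 4.20 CPM, and E2f3, an activator of S phase genes, from 33.6 ± 2.78 to 10.1 ± 1.82 CPM. Of 49 mitosis genes 11 fell (22.4%) and 1 rose, or 25 fell without irradiated replicate 1. That 22.4% was near the 20.9% of falls at 20 to 100 CPM. The list's median untreated level, 97.3 CPM, lies at the upper edge of that class, and at 100 CPM or more 10.4% fell. Without irradiated replicate 1 the shares of falls in these classes were 32.6% and 20.8%. Ccnb1, cyclin B1, went from 232, 186 and 151 CPM to 90.8, 50.8 and 54.8 CPM, and Wee1, the kinase that holds back mitotic entry, fell by 1.71. Of 35 genes on the BCL2 family and caspase list 13 fell and 5 rose, and 8 fell without untreated replicate 2. The risers with the smallest p were Tnfrsf12a and Cycs, described above, neither of them a BCL2 family member or a caspase. Bid, which links caspase 8 to mitochondria, went from 20.4, 26.1 and 24.04 CPM to 4.70, 4.24 and 4.23 CPM, a log2 fold change of −2.42 ± 0.19. Casp6, an executioner caspase, fell from 8.40 ± 1.76 to 2.42 ± 0.277 CPM.

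**Figure D4:**
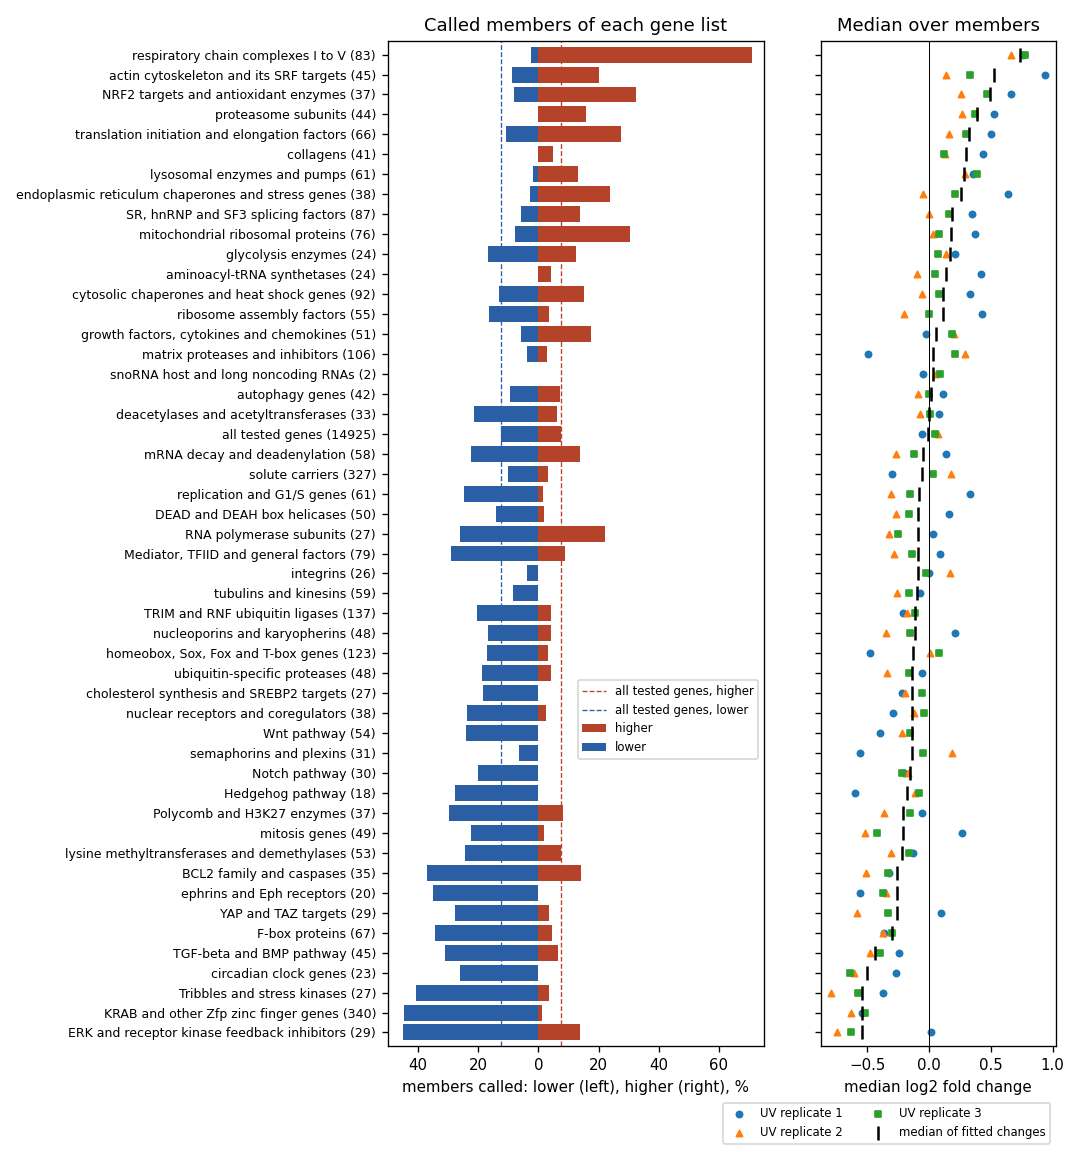
Left, percent of tested members of each of 49 gene lists called lower (blue, to the left) or higher (red, to the right). A further bar holds all tested genes. The number tested is in brackets, and dashed lines mark the shares over all tested genes, 7.7% and 12.4%. Right, median log2 fold change over members in each irradiated library and in the fit; respiratory chain genes lie above 0.5 in all 3 libraries and Zfp genes below −0.5.

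Changes of at least 4-fold outside the families were 24 rises and 56 falls, of which 23 and 50 were called in all 12 other settings. Only 11 of the rises and 18 of the falls belong to a list. The risers in no list included Nnat, an imprinted proteolipid gene, which went from 2.37 to 18.2 CPM on average, a log2 fold change of 2.93 ± 0.30. Nnat lies in an intron of Blcap, which was at 35.9 CPM untreated and 33.9 CPM after UV and was not called. Phlda1, a pleckstrin homology protein induced by growth factors, rose from 16.5 ± 3.03 to 86.9 ± 39.98 CPM, and Stxbp2, a syntaxin-binding protein of exocytosis, rose from 11.3 ± 2.71 to 52.3 ± 13.4 CPM. The fallers in no list included Thap11, a zinc finger factor, from 35.2 ± 3.59 to 6.64 ± 0.694 CPM, and Tnfrsf1b, a TNF receptor, from 37.6 ± 2.71 to 7.45 ± 0.299 CPM. Rgs4, a regulator of G protein signals, fell from 82.6 ± 10.9 to 19.9 ± 1.02 CPM, Nck1, an adaptor between receptors and actin, from 27.4 ± 3.72 to 5.64 ± 0.271 CPM, and Tada1, a subunit of the SAGA acetyltransferase complex, from 42.3 ± 4.41 to 9.31 ± 1.14 CPM. These 8 genes were picked as examples after their values were seen.

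H3K27ac at promoters was measured in pooled samples without a replicate test, and its shares are a description. The authors' log2 enrichment over input in the 1000 bases at a promoter was higher after UV for 55.8% of the genes that rose outside the families, for 46.5% of those that fell, for 42.0% of those not called and for 43.8% of all tested genes. That share also differed with untreated level, from 29.7% of genes under 1 CPM to 58.8% of those at 100 CPM or more. Within the class of 5 to 20 CPM it was 53.6% of rises and 36.0% of falls, and at 100 CPM or more it was 60.5% and 55.5%, so the gap was small there. It was higher for 70.8% of the 24 rises of at least 4-fold and for 28.6% of the 56 falls of that size. A gain of at least 1 was seen in 20.8% and 1.79% of these, against 2.93% of all tested genes. The pool after UV is the column headed with DMSO, taken as the irradiated cells from the protocol. Of the genes chosen by level, 20 had a single promoter in the RefSeq table that could be printed. Among these 20, the rises with the largest gain were 1700056E22Rik (1.08) and Tnfrsf12a (1.03), and the falls with the largest loss were Fbxo31 (−1.39) and Lipt2 (−0.79). Among the genes outside the 20, 1810011O10Rik and Hbegf gained more (1.16 each), and 9930012K11Rik (−1.70) and Cbx2 (−1.38) lost more than Lipt2. Of the rises, B3gnt4 and Gpr44 had lower H3K27ac after UV (−0.72 and −0.44).

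The 250 bases before the start of these 4 genes are printed as examples in which RNA and acetylation changed in the same direction. They are from RefSeq on build GRCm38.p6, 5′ to 3′ in the direction of transcription, and capitals mark matches on either strand to the TATA box TATAAA, the NF-Y motif CCAAT, the Sp1 motif GGGCGG, the E-box CACGTG, the AP-1 motif TGACTCA and the CREB core TGACGT. The windows are chr1:184033999-184034248 (minus strand), chr17:23677450-23677699 (minus), chr8:121578807-121579056 (minus) and chr7:100159027-100159276 (plus), in the order below.
1700056E22Rik: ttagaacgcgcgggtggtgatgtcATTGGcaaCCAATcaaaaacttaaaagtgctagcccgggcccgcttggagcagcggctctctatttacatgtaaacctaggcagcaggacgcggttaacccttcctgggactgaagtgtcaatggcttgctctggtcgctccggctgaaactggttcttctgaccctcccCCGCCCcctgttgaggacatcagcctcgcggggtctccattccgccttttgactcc
Tnfrsf12a: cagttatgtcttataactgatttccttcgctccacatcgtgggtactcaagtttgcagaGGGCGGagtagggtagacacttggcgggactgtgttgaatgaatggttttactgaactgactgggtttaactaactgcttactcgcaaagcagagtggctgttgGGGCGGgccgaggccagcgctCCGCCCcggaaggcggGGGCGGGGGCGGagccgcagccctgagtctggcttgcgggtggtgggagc
Fbxo31: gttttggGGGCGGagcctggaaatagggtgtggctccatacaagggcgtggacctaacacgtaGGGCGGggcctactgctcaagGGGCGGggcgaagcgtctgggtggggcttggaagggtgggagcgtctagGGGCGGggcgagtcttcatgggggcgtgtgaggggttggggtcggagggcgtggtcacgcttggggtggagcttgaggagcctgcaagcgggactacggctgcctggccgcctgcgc
Lipt2: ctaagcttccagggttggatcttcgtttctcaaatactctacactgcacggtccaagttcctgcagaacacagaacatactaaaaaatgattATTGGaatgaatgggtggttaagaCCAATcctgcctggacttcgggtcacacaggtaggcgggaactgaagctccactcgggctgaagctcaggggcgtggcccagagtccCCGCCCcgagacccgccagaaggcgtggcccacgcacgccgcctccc
All 4 hold GGGCGG, which 32.7% of the 32851 promoters in the table hold, and 1700056E22Rik and Lipt2 also hold CCAAT, which 33.8% hold. The GC share of the windows was 56.4%, 58.8%, 68.0% and 56.4%. None of the 4 windows holds any of the other 4 motifs searched. A match is a description of letters and not a bound site. Shares of motifs by direction of change are not given, because 79.1% of tested genes matched the promoter table, under the 80% set for such a comparison.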

How the data were processed

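The submitters' processing notes name the build mm9 and the tools Bowtie 0.12.9, DESeq2, MACS2 and TopHat. What each did, and with which settings, is not given in the sources used here. Whole-number read counts per gene and library are the RNA values, which the authors deposited unscaled. The promoter tables hold log2 enrichment over input that the authors deposited for pooled samples. Their DMSO columns were taken as irradiated, because the labels' protocol gives DMSO to irradiated cells, and 8 columns of another condition were not used.

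Counts were fitted in R 4.3.3 with edgeR 4.0.16: filterByExpr, TMM scaling, a quasi-likelihood F test between the groups and Benjamini-Hochberg adjustment over 14925 genes, with a threshold of 0.05. CPM values use TMM-scaled library sizes, and shares of counts use raw totals. A standard error is the size of the log2 fold change over the root of its F statistic. The biological coefficient of variation was 0.237. Symbols were those of the files, and 99.5% matched a name table. The fit was tested on simulated data. Tables and figures were made in Python 3.11.15 with pandas 2.3.3, scipy 1.17.1 and matplotlib 3.10.9.

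The members, lists and tests were chosen with earlier results of these data known. Zfp, F-box, Slc, Trim and similar lists were built by symbol pattern. Genes were named by rule outside the 4 families: per level class the 3 largest called rises and falls with no overlap between groups and at least 1 CPM in the higher group, the 5 called genes with the largest CPM gains and the 5 with the largest losses, and per list up to 2 called members per direction by smallest p. A few genes that meet this rule are not reported here. Alternatives were DESeq2 1.42.0, its size factors, library totals, no low-count filter, at least 1 CPM in 3 libraries, a replicate block, each library left out, a fold minimum, other bases for the level classes, and genes of each class outside the families alone, the last chosen after the data were seen.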

Additional observations from a re-analysis of the deposited data

How the results depend on the processing

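With library totals as the scale, all tested genes had a median log2 fold change of −0.24 against −0.01, and 3663 genes fell outside the 4 families against 1793. Without a low-count filter 684 rose against 1035, and a fold change of at least 2 left 204 rises and 748 falls. Leaving out each library in turn gave 491 to 1826 rises and 1082 to 2779 falls. The class medians with library totals were −0.27 at 5 to 20 CPM, −0.29 at 20 to 100 CPM and −0.14 at 100 CPM or more. At 5 to 20 CPM the median was −0.13 with classes from all 6 libraries, 0.06 with classes from untreated replicate 1 and −0.12 to 0.07 with single libraries left out. The medians of 34 of the 49 lists moved with library totals by at least the SD of the 3 irradiated libraries' medians. They moved downward, as did the median over all tested genes. The Zfp list went from −0.54 to −0.79 and the respiratory chain list from 0.74 to 0.52. A change of scale moves all genes of a library together, so these are not separate changes of 34 lists. Why the scales differ was not tested. Of the 178 called genes named by rule, 143 kept their call in all 12 settings. The change of 1500012F01Rik, a host of small nucleolar RNAs that was not called, was −0.20, and ranged from −0.30 to 0.00 with single libraries left out (adjusted p = 0.997 at 0.00, without untreated replicate 2).

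No pairing by replicate number was seen throughout, but 3 libraries per group are too few to exclude one. The correlation of deviations between same-numbered libraries was 0.155, −0.58 and 0.504. Irradiated replicates 1 and 2 did not correlate best with their own number, while replicate 3 did. With the replicate block 1276 genes were higher and 2067 lower over all tested genes, against 1149 and 1854. Depth limits the classes under 5 CPM, where few changes could be called.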
